A study of Homo sapiens with 6 samples.

Results

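The EGF receptor family and its ligands were followed through 9 genes: the receptors EGFR, ERBB2 and ERBB3, the ligands AREG, EREG, HBEGF, TGFA and NRG1, and the feedback inhibitor ERRFI1. They were taken by symbol from a deposited table of 15024 genes, and 9 of 9 were found. The cells were MDA-MB-231, an established human line of triple-negative breast cancer that carried a non-targeting guide (sgNT). All had been grown with 10 μM forskolin, an activator of adenylyl cyclase and so of protein kinase A, over 14 days, and were then sorted by surface CD44 and CD104 (integrin beta 4). The CD104high group held CD44+ cells high in CD104, which the design text calls hybrid epithelial-mesenchymal, and the CD104low group held CD44+ cells negative or low for CD104, which it calls mesenchymal. There were 3 libraries of each, which the labels number as biological replicates. Since 1 cell line with 1 treatment was used, the data hold no level without forskolin, and the MLL3-mutant cells of the design text were not analysed here.

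Receptors of the EGF family are tyrosine kinases that pair on ligand binding and signal through RAS and ERK and through PI3K and AKT. AREG, EREG, HBEGF and TGFA bind EGFR, NRG1 binds ERBB3, and ERBB2 has no known ligand of its own and serves as a partner of the other receptors. The ligands are made as membrane-bound precursors that proteases of the ADAM family release, and ERRFI1 binds and inhibits active receptors. In the mouse mammary gland AREG is the ligand through which estrogen drives the growth of the ducts, and AREG is also known as a gene that cAMP signalling through CREB can induce.

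The RNA of 4 of the 9 genes was higher in CD104high than in CD104low cells, and that of 1 was lower. AREG was 2.08-fold and EREG 1.89-fold higher, ERBB3 was 1.60-fold and TGFA 1.33-fold higher, and HBEGF fell by 0.28 on the log2 scale. EGFR, NRG1 and ERRFI1 had log2 fold changes between −0.02 and 0.09 and did not pass the test, and ERBB2 (0.20) missed the threshold at an adjusted p of 0.0501. Calls were made with limma on log2(value + 1), fitted over 14343 genes, at a Benjamini-Hochberg adjusted p under 0.05. All adjusted p-values below are from that test unless another is named. Over all genes tested, 12.1% were higher and 11.3% lower in CD104high, 23.4% in either direction, against 5 of the 9. The median log2 fold change of the 9 genes was 0.20 and that of all genes tested 0.01. In these sorted bulk populations, fewer cells of a type and less RNA per cell cannot be told apart.

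The values are read counts that the authors divided by a size factor per library, called normalised read counts here. The 6 libraries held 52088604 to 56958065 gene reads. ITGB4, the gene of the sort marker, had 17659 ± 1766 in CD104high and 3079 ± 743 in CD104low libraries (SD, n = 3 each), and its log2 fold change was 2.54. Of the genes listed to check the line, VIM, CD44 and KRT18 averaged between 14462 and 26785 in either group and did not pass the test, and EPCAM averaged 677 in CD104high and 639 in CD104low. KRT19 had 26688 ± 292 in CD104high and 20155 ± 669 in CD104low (adjusted p = 0.00194), and KRT7 had 41741 ± 2827 in CD104high and 32238 ± 4849 in CD104low (adjusted p = 0.0264). The call of KRT7 was lost without CD104high replicate 1 (0.11), CD104high replicate 2 (0.0639), CD104low replicate 2 (0.0819) or CD104low replicate 3 (0.0671). Of 14 markers listed for blood, vessel, mural and liver cells, 8 were not analysed here. The summed level of the other 6 ranged from 3169 to 4735 in CD104high and from 1817 to 3536 in CD104low, most of it PDGFRB, a mural and mesenchymal marker. PECAM1, an endothelial marker, had 2 to 9.8 normalised reads per library, and CD14, a monocyte marker, was 2.21-fold higher in CD104high (adjusted p = 0.000359). PDGFRB overlapped between the groups and did not pass (adjusted p = 0.1275), nor did ACTA2 (0.3986), CD79A (0.8906) or RGS5 (0.8166 and 0.9577 for its separate entries). The libraries came from 1 cultured line, and these reads do not show that other cell types were present. Whether any were present was not tested.

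Promoter sequence is shown for AREG and EREG, the neighbouring ligand genes that rose most among the 9, and for HBEGF, the ligand gene that fell. Each is the 250 bases before the RefSeq start of the gene (GRCh38.p14), written 5′ to 3′ on the strand of the gene. The windows are chr4:74444886-74445135 on the plus strand for AREG, chr4:74364895-74365144 on the plus strand for EREG, and chr5:140346604-140346853 on the minus strand for HBEGF. Capitals mark matches to the cAMP response element TGACGTCA, its shorter form TGACG or the TATA box TATAAA. The AP-1 motif TGANTCA was also searched, and each motif was searched on both strands.
AREG: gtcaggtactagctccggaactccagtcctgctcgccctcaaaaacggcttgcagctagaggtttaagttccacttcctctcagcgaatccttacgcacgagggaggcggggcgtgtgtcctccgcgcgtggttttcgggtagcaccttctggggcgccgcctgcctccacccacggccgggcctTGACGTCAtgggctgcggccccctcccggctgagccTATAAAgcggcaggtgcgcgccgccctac
EREG: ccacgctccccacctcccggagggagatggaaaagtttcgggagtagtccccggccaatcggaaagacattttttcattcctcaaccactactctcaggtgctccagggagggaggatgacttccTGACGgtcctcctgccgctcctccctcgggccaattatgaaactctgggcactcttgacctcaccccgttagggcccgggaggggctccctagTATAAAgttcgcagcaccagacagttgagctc
HBEGF: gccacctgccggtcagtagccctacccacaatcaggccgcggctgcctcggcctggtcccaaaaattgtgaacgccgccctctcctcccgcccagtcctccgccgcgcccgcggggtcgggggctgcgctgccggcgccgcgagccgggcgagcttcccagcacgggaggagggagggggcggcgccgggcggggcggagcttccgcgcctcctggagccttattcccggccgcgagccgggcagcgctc

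The AREG window held the full TGACGTCA, starting 65 bases before the gene start. The full motif contains the shorter form on both strands, so these matches are the same letters. It was present in 1.65% of 35116 RefSeq promoter windows of the same length. The EREG window held the shorter TGACG alone, starting 125 bases before the gene start, and 21.2% of all windows held it. AREG and EREG each had TATAAA, starting 29 and 32 bases before the start, a motif present in 10.7% of windows. None of the 4 motifs was found in the HBEGF window. RefSeq windows were found for 7 of the 9 genes, and those of the other 4 matched genes are described here without their letters. Of these, 1 of 2 TGFA windows held TGACG, the ERBB2 window held TGANTCA (present in 6.57% of windows), 1 of 2 EGFR windows held TGANTCA and TATAAA, and the ERRFI1 window held no match. A match describes the letters and does not show binding.

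Among the ligands, AREG (ENSG00000109321.11), which encodes amphiregulin, had 3038, 3960 and 3995 normalised reads in CD104high replicates 1 to 3, against 1676, 1736 and 1844 in CD104low replicates 1 to 3. Every CD104high library lay above every CD104low library, and CD104high replicate 1 was the lowest of its group. The means were 3664 ± 543 and 1752 ± 85.1 (SD, n = 3 each), a log2 fold change of 1.05 with a 95% interval of 0.81 to 1.29 (SE 0.11, adjusted p = 0.000329), higher in 3 of 3 numbered pairs. Of all genes tested, 2.68% had a larger rise.

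EREG (ENSG00000124882.4), the gene of epiregulin, had 365, 483 and 506 normalised reads in CD104high replicates 1 to 3, against 219, 244 and 246 in CD104low. The groups did not overlap, and replicate 1 was again the lowest library within each group, as for AREG. Means were 451 ± 76.1 in CD104high and 237 ± 14.98 in CD104low, with a log2 fold change of 0.92 (95% interval 0.57 to 1.26, SE 0.16, adjusted p = 0.00315). The call of AREG and that of EREG held under each of 19 alternative settings, with adjusted p-values up to 0.0119 for AREG and 0.0191 for EREG.

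TGFA (ENSG00000163235.16), the gene of transforming growth factor alpha, had 5465, 6042 and 5057 normalised reads in CD104high replicates 1 to 3, against 4463, 4173 and 3835 in CD104low. Its groups did not overlap, with replicate 3 the lowest library of each. The log2 fold change was 0.41 (95% interval 0.22 to 0.60, SE 0.09, adjusted p = 0.00843), and the call held under each of the 19 alternatives (adjusted p up to 0.0462).

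HBEGF (ENSG00000113070.8), the gene of heparin-binding EGF-like growth factor, went the other way. It had 4021, 3938 and 4541 normalised reads in CD104high replicates 1 to 3, against 4787, 4857 and 5485 in CD104low, without overlap and lower in 3 of 3 numbered pairs. It fell by 0.28 on the log2 scale (95% interval −0.46 to −0.09, SE 0.08, adjusted p = 0.0369). This call was lost without CD104high replicate 1 (adjusted p = 0.121), CD104high replicate 2 (0.13), CD104low replicate 2 (0.064) or CD104low replicate 3 (0.102), and with the replicate number as a block it was 0.0076.

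NRG1 (ENSG00000157168.20), which encodes neuregulin, the ligand of ERBB3, had 2872, 2508 and 3082 normalised reads in CD104high replicates 1 to 3, against 3151, 2298 and 2902 in CD104low. The groups overlapped, and replicate 2 was the lowest library of both. The log2 fold change was 0.03 with a 95% interval of −0.24 to 0.30 (adjusted p = 0.898).

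**Figure D1:**
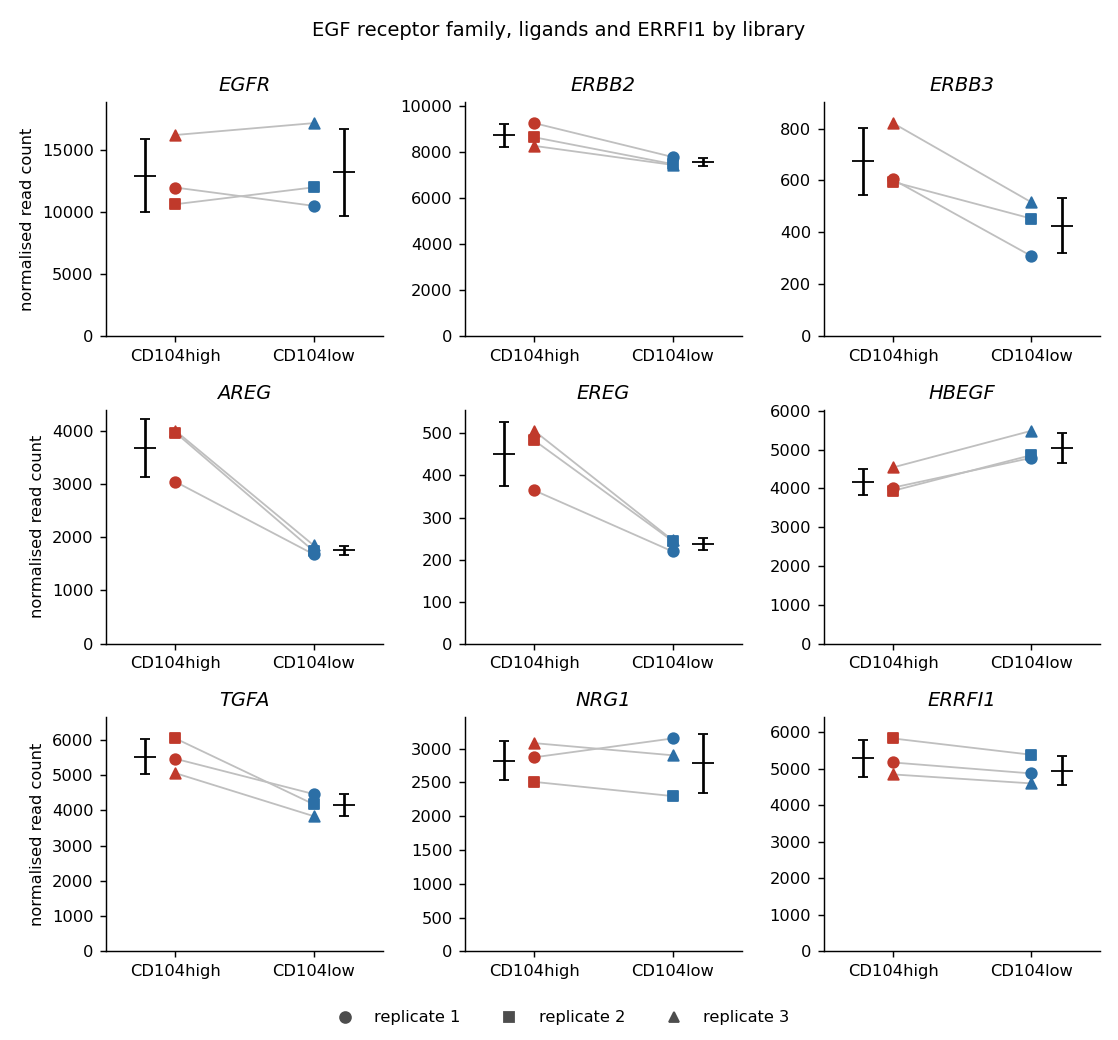
Normalised read count (vertical axes, from 0) of the 9 genes in CD104high (red) and CD104low (blue) libraries, with grey lines joining libraries of the same replicate number, point shapes giving that number and black bars showing mean and SD of 3 libraries. AREG, EREG, TGFA, ERBB3 and ERBB2 were higher in every CD104high library than in any CD104low library, HBEGF was lower in every one, and EGFR was highest in replicate 3 of both groups.

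Among the receptors, EGFR (ENSG00000146648.18) had 11944, 10602 and 16174 normalised reads in CD104high replicates 1 to 3, against 10471, 11961 and 17129 in CD104low. Replicate 3 was the highest library in both groups, and the spread between replicates was far wider than the difference between the means of 12907 ± 2908 and 13187 ± 3494. The log2 fold change was −0.02 with a 95% interval of −0.44 to 0.39 (adjusted p = 0.945). EGFR-AS1, an antisense gene that shares 186 bases of exon with EGFR, had 3.0 to 14.4 normalised reads per library.

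ERBB2 (ENSG00000141736.13), the partner receptor without a ligand, had 9262, 8646 and 8272 normalised reads in CD104high replicates 1 to 3, against 7789, 7480 and 7443 in CD104low. The groups did not overlap, and the log2 fold change was 0.20 (95% interval 0.06 to 0.35, SE 0.07, adjusted p = 0.0501). With the replicate number as a block the adjusted p was 0.0264, and in the authors' deposited table it was 0.028 at a log2 fold change of 0.20. ERBB2 passed in 5 of 19 alternative settings, with adjusted p-values up to 0.168 over all of them. With correction for exon length and GC content its log2 fold change was 0.12 (adjusted p = 0.126). PGAP3, which overlaps ERBB2 on the other strand and shares 194 bases (1.88%) of its annotated exons, was higher in CD104high, at 1245 and 828 mean normalised reads in CD104high and CD104low (log2 fold change 0.59, adjusted p = 0.00222). MIEN1, which shares 571 bases (5.53%) on the other strand, had 975 and 1019 in CD104high and CD104low. Without a stated strand setting, reads in those stretches cannot be told apart.

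ERBB3 (ENSG00000065361.15), whose kinase has little activity of its own and which couples to PI3K, had 604, 595 and 821 normalised reads in CD104high replicates 1 to 3, against 309, 453 and 516 in CD104low. The groups did not overlap, CD104low replicate 1 was the lowest of the 6 libraries, and replicate 3 was the highest of each group. The log2 fold change was 0.68 (95% interval 0.23 to 1.12, SE 0.20, adjusted p = 0.0341). The call was lost without CD104high replicate 1 (adjusted p = 0.075), replicate 2 (0.0593) or replicate 3 (0.0957) and without CD104low replicate 1 (0.0859) or replicate 2 (0.0546). It was kept without CD104low replicate 3 (0.0126, log2 fold change 0.83) and without both libraries numbered 3 (0.00693, 0.68). With the replicate block it was 0.00291.

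ERRFI1 (ENSG00000116285.13), a gene that EGFR signalling induces and whose protein inhibits the receptors, had 5175, 5833 and 4848 normalised reads in CD104high replicates 1 to 3, against 4874, 5387 and 4602 in CD104low. The groups overlapped, while each CD104high library was above the CD104low library of its number. The log2 fold change was 0.09 (95% interval −0.10 to 0.29, adjusted p = 0.487).

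Of the 9 genes, 6 did not overlap between groups, against 41.2% of all genes tested. With the replicate number as a block 5 were called higher and 1 lower, where 32.8% of all genes tested were called, and ERBB2 was the gene added. The authors' deposited table had the same 6 genes at an adjusted p under 0.05, and 29.6% of its genes with an adjusted p.

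**Figure D2:**
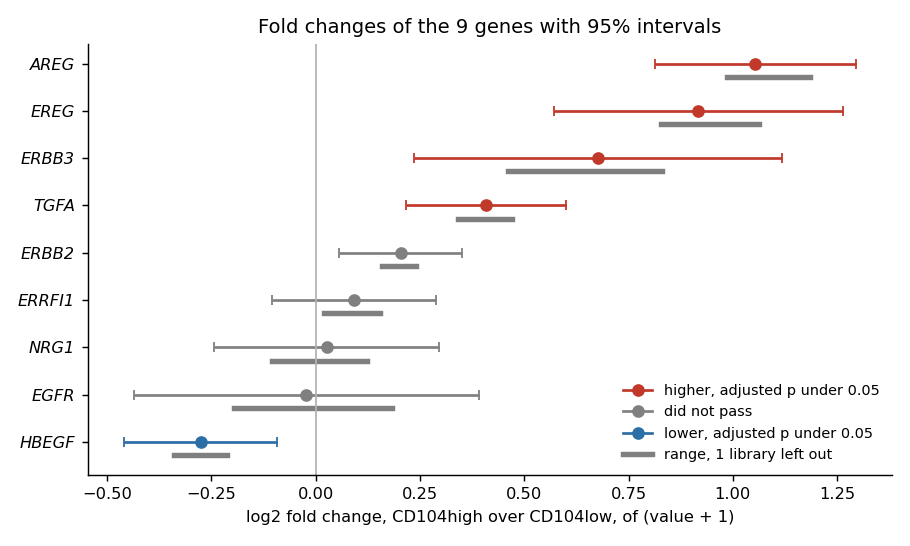
Log2 fold change (horizontal axis, CD104high over CD104low, of value + 1) of the 9 genes with 95% intervals from limma, red for higher, blue for lower and grey for genes that did not pass, with thick bars for the range when 1 library was left out. AREG and EREG sit near 1 with leave-one-out ranges that start at 0.99 and 0.83, and the ranges of EGFR and NRG1 cross 0.

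Levels can be set against each other only per length, and so the normalised reads were divided by the merged exon length of each gene in GENCODE 29. That length counts every annotated isoform and makes levels of genes with many isoforms look lower. Among the receptors, EGFR had 1031 ± 232 normalised reads per kb in CD104high and 1053 ± 279 in CD104low, ERBB2 846 ± 48.4 and 734 ± 18.4 in CD104high and CD104low, and ERBB3 74.5 ± 14.2 and 47.1 ± 11.8 (SD, n = 3). EGFR was above ERBB2 in each of the 6 libraries, by a ratio of 1.01 to 1.61 in CD104high and 1.11 to 1.90 in CD104low, and the lowest of these ratios are too close to 1 to set an order, given how length was counted. ERBB3 lay far below both in every library.

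Per kb, the order of the main ligands differed between the groups. The order depends on the merged exon lengths, 1648 bases for AREG, 3018 for HBEGF and 4963 for TGFA. Before division by length, the CD104high means were 5521 for TGFA, 4167 for HBEGF and 3664 for AREG. Those of CD104low were 5043 for HBEGF, 4157 for TGFA and 1752 for AREG. The levels that follow are per kb. In CD104high, AREG led with 2224 ± 329 normalised reads per kb, followed by HBEGF with 1381 ± 108 and TGFA with 1112 ± 99.7. In CD104low, HBEGF led with 1671 ± 127, followed by AREG with 1063 ± 51.6 and TGFA with 838 ± 63.3. NRG1 (249 ± 25.6 in CD104high and 246 ± 38.7 in CD104low) and EREG (79.0 ± 13.3 and 41.4 ± 2.62 in CD104high and CD104low) stood below these per kb in all libraries. The place of NRG1 depends on its merged exon length of 11328 bases, against 1648 for AREG. Before division by length, NRG1 had 2298 to 3151 normalised reads in CD104low, above AREG with 1676 to 1844. In CD104high AREG was above NRG1 in each numbered replicate. The summed level of the 5 ligands was 4594 to 5308 per kb in CD104high and 3749 to 4008 in CD104low.

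A ratio of both genes within a library does not depend on how libraries are scaled. AREG over HBEGF, per kb, was 1.38, 1.84 and 1.61 in CD104high replicates 1 to 3, against 0.641, 0.654 and 0.615 in CD104low. Per kb, AREG was thus the higher of both in every CD104high library and the lower in every CD104low library. Which gene is the higher depends on the lengths used, and the shift of the ratio between the groups does not. TGFA over HBEGF was 0.826, 0.933 and 0.677 in CD104high, against 0.567, 0.522 and 0.425 in CD104low, also without overlap. For both ratios an exact two-sided permutation test gave p = 0.1, the smallest value that 3 against 3 libraries allow. These were among 6 ratios computed, chosen after the values were seen.

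**Figure D3:**
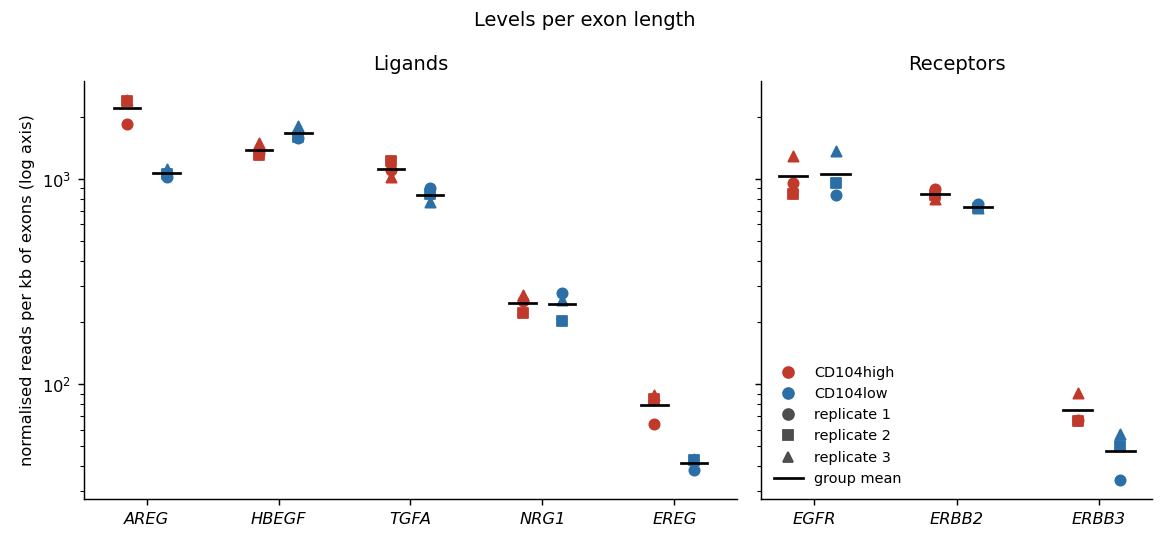
Normalised reads per kb of merged exons (vertical log axis) of the 5 ligands and 3 receptors, with CD104high libraries in red to the left of CD104low libraries in blue, point shapes for the replicate number and black lines for group means. Per kb, AREG is the highest ligand in CD104high (mean 2224) and HBEGF in CD104low (mean 1671), while EREG and ERBB3 lie far below the other genes in both groups. The order of genes depends on the lengths used.

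AREG and EREG lie side by side on chromosome 4, in a stretch with the ligand genes EPGN (epigen) and BTC (betacellulin). On GRCh38 in GENCODE 29, EREG spans 74365143 to 74388751 and AREG 74445134 to 74455009, both on the plus strand, with starts 80 kb apart. Within 300 kb of this pair lie 4 other protein-coding genes, a window chosen after the values were seen. BTC, with 116 ± 5.38 normalised reads in CD104high and 71.1 ± 20.3 in CD104low, was 1.67-fold higher (adjusted p = 0.0469). That call was lost without any of the CD104high libraries (adjusted p = 0.123, 0.106 and 0.112 without replicates 1, 2 and 3) and without CD104low replicate 1 (0.119) or replicate 3 (0.102), and edgeR gave 0.0626.

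No other gene of the stretch was called higher. MTHFD2L, which encodes a mitochondrial folate enzyme and starts 331 kb before AREG, fell by 0.39 on the log2 scale (adjusted p = 0.0344), a call lost in 5 of 6 fits without 1 library (without CD104high replicate 1, 0.124, or replicate 2, 0.0821, and without CD104low replicate 1, 0.0537, replicate 2, 0.0881, or replicate 3, 0.0728) and with correction for exon length and GC content (0.0585). The chemokine gene CXCL2 had a log2 fold change of 0.20 (adjusted p = 0.497). EPGN, between MTHFD2L and EREG, had 2.1 to 8.7 normalised reads per library and did not enter the test.

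**Figure D4:**
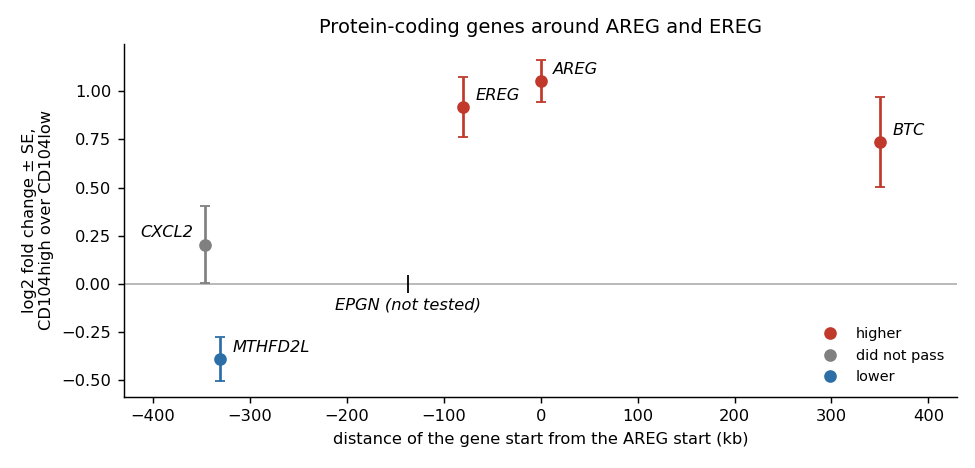
Log2 fold change with SE (vertical axis, CD104high over CD104low) of the protein-coding genes around AREG and EREG against the distance of their start from the AREG start in kb (horizontal axis), red for higher, blue for lower and grey for not passing. EREG (0.92), AREG (1.05) and BTC (0.74) lie above 0, MTHFD2L (−0.39) below it, and EPGN was not tested.

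Libraries of the same replicate number deviated alike in some of these genes and not in others. After subtraction of group means, EGFR deviated on the log2 scale by 0.35 in CD104high replicate 3 and 0.41 in CD104low replicate 3, and HBEGF by 0.13 and 0.12. TGFA deviated by −0.12 and −0.11 in the replicates numbered 3, and ERRFI1 by 0.15 and 0.12 in CD104high and CD104low replicates 2. ERBB3 deviated in opposite directions in the replicates numbered 2, by −0.16 in CD104high and 0.12 in CD104low. TGFA in the replicates numbered 1 (−0.01 and 0.10 in CD104high and CD104low) and AREG in those numbered 2 (0.12 and −0.01) did not match either. AREG and EREG moved alike between libraries of CD104high as well, with −0.26 and −0.29 in replicate 1. AREG over EREG, per kb, was 27.4 to 28.9 in CD104high and 24.7 to 26.5 in CD104low.

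Genes with the profile over the 6 libraries most like that of each of the 9 were found by the root mean square difference of log2 values centred per gene, among genes with a mean at or above the median. They describe likeness only. Nearest to AREG were SMIM14 (0.088) and the interferon-induced gene IFIT1 (0.101). Nearest to EREG were ACSS2 (0.0943), which encodes an acetyl-CoA synthetase, and ITGA6 (0.103), the integrin subunit that pairs with CD104. TGFA was nearest to BNIP3L (0.0223) and ITM2B (0.0328), and ERBB3 to THSD4 (0.0662) and PFKFB2 (0.126). ERBB2 was nearest to APOBEC3C (0.0208) and STX4 (0.0224), and HBEGF to WDR76 (0.0287) and CHCHD3 (0.0313). EGFR was nearest to ANLN (0.0686) and AVL9 (0.0772), NRG1 to ATP5MF (0.0497) and ARF5 (0.0504), and ERRFI1 to ZBTB7A (0.0211) and CEP95 (0.0300).

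Of 7 further receptors and ligands listed, ERBB4 and NRG3 were not analysed here. BTC was the 1 member of 3 tested that was called (0 without any of the 5 libraries named for BTC), against 23.4% of all genes in either direction. EGF had 248 ± 34.3 normalised reads in CD104high and 198 ± 37.0 in CD104low (adjusted p = 0.217). NRG2 had 36.7 and 30.8 on average in CD104high and CD104low, and NRG4, which did not enter the test, 5.99 and 11.2.

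The list of ligand shedding and trafficking had more genes called higher than any other list tested here. The lists were chosen with earlier results of these data known, so these counts are a description only. Of 18 tested genes of shedding and trafficking, 9 were higher and 1 lower, against 12.1% and 11.3% of all genes, with a median log2 fold change of 0.27. ADAM8, a metalloprotease, was 1.95-fold higher, at 3486 ± 79.1 in CD104high and 1789 ± 95.4 in CD104low (adjusted p = 0.000104). CD9, a tetraspanin that associates with ligand precursors, was 1.54-fold higher (adjusted p = 0.000497), and RHBDL1, a rhomboid protease, 1.79-fold (adjusted p = 0.0032). ADAM10, a sheddase of several EGF family ligands, was 1.23-fold higher, at 24420 ± 801 in CD104high and 19815 ± 290 in CD104low (adjusted p = 0.00734).

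ADAM17, the main sheddase of AREG, EREG, TGFA and HBEGF, had 2393 ± 135 normalised reads in CD104high, and 2252 ± 276 in CD104low, with a log2 fold change of 0.09 (95% interval −0.13 to 0.32, adjusted p = 0.532). Its partners were called: RHBDF1 and RHBDF2, which encode the iRhom proteins that carry ADAM17 to the cell surface, were 1.26-fold and 1.37-fold higher (adjusted p = 0.00929 and 0.00971). With correction for exon length and GC content RHBDF1 had a log2 fold change of 0.21 (adjusted p = 0.0602), against 0.34 without it. FRMD8, which stabilises the iRhoms there, was 1.32-fold higher (adjusted p = 0.0132), a call lost without CD104high replicate 1 (0.0588). These 4 genes were singled out after their values were seen. The 1 listed gene that fell was ADAM19, by 0.27 (adjusted p = 0.0221). Its call was lost, and the count of lower genes was 0, without CD104high replicate 2 (0.0928), CD104high replicate 3 (0.062) or CD104low replicate 2 (0.063). With all libraries, 1 gene was lower at an unadjusted p under 0.05, and edgeR and DESeq2 each called 1, and correction for exon length and GC content gave 2.

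Most genes of the relays behind the receptors did not pass, as was so for most of all genes tested. Of 23 tested adaptor and RAS-ERK genes, 3 were higher and 1 lower, against 12.1% and 11.3% of all genes, with a median of 0.00. GRB7, an adaptor that binds ERBB2 and ERBB3, was 2.45-fold higher at a low level, with 208 ± 20.3 normalised reads in CD104high and 83.9 ± 5.32 in CD104low (adjusted p = 0.00114). SOS2, an exchange factor for RAS, was 1.32-fold higher (adjusted p = 0.0259) and SHC2, an adaptor, 1.72-fold (adjusted p = 0.0336). PTPN11, the phosphatase SHP2 that ERK signalling requires, fell by 0.34 (adjusted p = 0.0052). The replicate block gave 2 lower genes, as did correction for exon length and GC content, and both together gave 5. Under that correction SHC2 lost its call (adjusted p = 0.0863, and 0.0657 with the block). The count of higher genes was 1 without CD104high replicate 1, without CD104high replicate 2 or without CD104low replicate 2. SOS2 also lost its call without CD104high replicate 3 (0.0755) or CD104low replicate 1 (0.065), and SHC2 without CD104low replicate 3 (0.0606).

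Of 17 tested PI3K-AKT genes, 1 was higher and 0 lower by limma, against 12.1% and 11.3% of all genes. At an unadjusted p under 0.05, 2 were lower by limma, and edgeR and DESeq2 each called 0 lower. With the replicate block 1 was lower. After correction for exon length and GC content 2 were higher and 3 lower, and with the block added 4 were higher and 3 lower. PIK3C2B, a class II PI3 kinase that associates with EGFR, was 1.66-fold higher, at 620 ± 65.6 in CD104high and 376 ± 68.8 in CD104low (adjusted p = 0.00943, and 0.052 without CD104high replicate 1). The list median was 0.11.

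Of 24 tested genes of receptor inhibition and turnover, 3 were higher and 3 lower, close to the 12.1% and 11.3% of all genes. The list median was −0.06. CBLB, a ubiquitin ligase that acts on active receptors, was 1.58-fold higher, at 1572 ± 46.4 in CD104high and 998 ± 85.9 in CD104low (adjusted p = 0.00123). The receptor phosphatase genes PTPRK and PTPRJ were 1.37-fold and 1.32-fold higher (adjusted p = 0.00131 and 0.00214). NEDD4L, a ubiquitin ligase, fell by 0.32 (adjusted p = 0.014), a call lost without CD104high replicate 1 (0.0641), CD104high replicate 2 (0.0504) or CD104low replicate 2 (0.0564). UBASH3B, a phosphatase that counters CBL proteins, fell by 0.43 (adjusted p = 0.0294), and HGS, which sorts receptors on endosomes, by 0.20 (adjusted p = 0.0477). In each of the 3 fits named for NEDD4L the count of lower genes was 0. UBASH3B also lost its call without CD104low replicate 3 (0.0678), and HGS without CD104high replicate 3 (0.108) or CD104low replicate 3 (0.0957). With the replicate block 5 were higher and 4 lower, where 32.8% of all genes were called in either direction. With correction for exon length and GC content added to the block 6 were higher and 6 lower. DESeq2 called 5 higher, as did that correction without the block.

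Of 25 tested targets of EGF receptor and ERK signalling, 2 were higher and 8 lower, against 12.1% and 11.3% of all genes, with a median of 0.01. The cytokine gene IL11 fell by 1.38 on the log2 scale, MYC by 0.60, the ERK phosphatase gene DUSP5 by 0.73 and FOSL1, a subunit of AP-1, by 0.32 (adjusted p = 0.000148, 0.00046, 0.00239 and 0.00648). The listed feedback inhibitors of ERK signalling had calls in both directions, and they were picked out after their values were seen. DUSP5 (above), SPRY4 and SPRED2 fell, SPRY4 and SPRED2 by 0.35 and 0.31 (adjusted p = 0.0403 and 0.0414), DUSP6 and SPRY1 rose, and DUSP4, SPRY2 and SPRED1 had log2 fold changes of 0.27, 0.17 and 0.15 and did not pass. SPRY4 lost its call in 5 of 6 fits without 1 library, all but that without CD104low replicate 1, with adjusted p-values up to 0.147. SPRED2 lost it without CD104high replicate 1 (0.117), CD104high replicate 3 (0.13), CD104low replicate 1 (0.0954) or CD104low replicate 2 (0.132). DUSP6, an ERK phosphatase, had 4159 ± 373 normalised reads in CD104high and 3262 ± 26.1 in CD104low, a 1.27-fold rise (adjusted p = 0.012, and 0.0558 without CD104high replicate 2). SPRY1 had 600 ± 87.6 in CD104high and 421 ± 30.9 in CD104low, a 1.41-fold rise (adjusted p = 0.024), and lost its call without CD104high replicate 2 (0.0993), CD104high replicate 3 (0.0555), CD104low replicate 2 (0.0621) or CD104low replicate 3 (0.0527). The count of lower targets was 5 without CD104high replicate 3, and that of higher targets 0 without CD104high replicate 2, 1 without CD104low replicate 2, 6 with the replicate block and 5 by DESeq2.

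**Figure D5:**
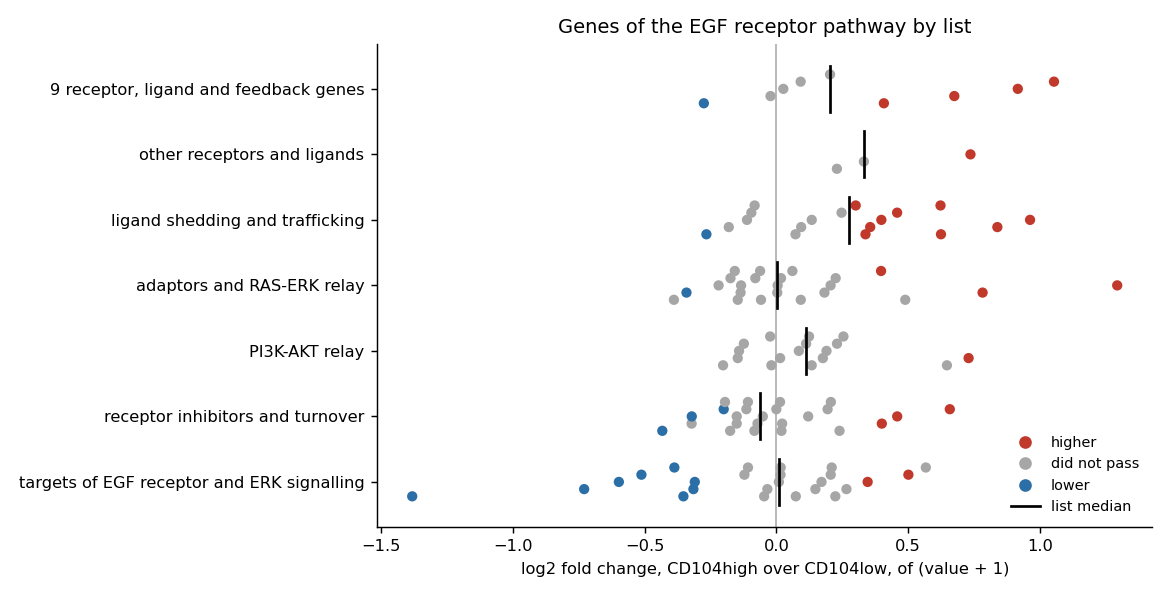
Log2 fold change (horizontal axis, CD104high over CD104low, of value + 1) of each tested gene by list, red for higher, blue for lower and grey for not passing, with black lines at list medians and points spread vertically only for legibility. Points of the shedding list lie mostly above 0 (median 0.27), and the list of ERK targets has calls in both directions around a median of 0.01.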

How the data were processed

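Total RNA of 6 libraries was compared, 3 CD104high and 3 CD104low. The submitters' processing notes name GRCh38.p13 (hg38) and, with no role given, the tools DESeq2 1.30.1, featureCounts 1.5.0, STAR 2.4.0 and FastQC, and the strand setting is not given in the sources used here. The authors deposited a signal per library, which from the values is gene read counts divided by a size factor. They also deposited a log2 fold change with its standard error, p-values, raw and adjusted, and the test statistic, a score. Dividing the deposited signal by the size of 1 read gave values within 0.1 of a whole number for 100% of values. For CD104high replicate 2 that size is 0.993, close to 1 and less certain, so tests on counts stand only as alternatives. The lowest recovered count was 1, so a gene at 0 in 1 or more libraries is not analysed here. Chi-square per gene between replicates was 18 to 42.8, so none was a repeat of another.

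In R 4.3.3, limma 3.58.1 (trend option on) was fitted to log2(value + 1) of the 14343 genes that reached 10 in 3 or more libraries, with group as the term and Benjamini-Hochberg adjustment over all of them. The pseudocount understates the change of low genes. The script was tested on simulated data. Means and SDs are of deposited values, and fold changes are 2 to the power of the fitted log2 change. The labels call the replicates biological without naming separate cultures or sorts. The p-values set the group difference against the spread between these libraries, which limma draws toward a trend over all genes.

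Deviations from group means of same-numbered libraries correlated across genes at 0.166, 0.317 and 0.477 for numbers 1, 2 and 3, each higher than with the other numbers. This pairing comes from the data, and the block is given beside a result where it changes the call. Alternatives were TMM, median-ratio and total-read scaling, no filter, pseudocounts of 0.1 and 5, each library left out, the block, edgeR 4.0.16 and DESeq2 1.42.0 on recovered reads, no trend, fold changes freed of their dependence on exon length and GC content, also with the block, a threshold of 0.01 and, chosen after seeing the data, both libraries numbered 3 left out. The 9 genes and the lists were chosen with earlier results of these data known. The genes named are the 9, up to 4 called genes of the smallest p per list, 2 genes of the most similar profile for each of the 9, and those said to be singled out after their values were seen. Exon lengths are from GENCODE 29, matched without version for 14994 of 15024 genes. Levels per kb used the merged exons of each gene. The correction for exon length and GC content used those of its longest annotated transcript.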

Additional observations from a re-analysis of the deposited data

How the results depend on the processing

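AREG, EREG and TGFA kept their calls under all 19 alternatives. The number of the 9 genes called higher was 3 to 5. The number called lower was 0 without 1 library in 4 of 6 fits (range 0 to 1), and 0 with total-read scaling, without the trend, at a threshold of 0.01 and without both libraries numbered 3, where HBEGF had −0.28 (adjusted p = 0.054). In each of these limma fits 1 gene was lower at an unadjusted p under 0.05, and edgeR and DESeq2 called 1. ERBB3 and HBEGF also lost their calls without the trend (adjusted p = 0.0993 and 0.101), HBEGF with total-read scaling (0.0542), and both at the threshold of 0.01. ERBB2 passed in 5 of the 19 alternatives (adjusted p = 0.0264 to 0.0492). These were total-read scaling, a pseudocount of 5, the replicate block, DESeq2 and the fit without CD104low replicate 1. In the others its adjusted p was up to 0.168, the value without CD104high replicate 1. Corrected for length and GC, its log2 fold change was 0.12 (adjusted p = 0.126, and 0.083 with the block). ERRFI1 passed under the replicate block once length and GC were corrected for (0.048).

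The direction of EGFR and NRG1 was not stable. Without 1 library EGFR ranged from −0.20 to 0.18 and NRG1 from −0.11 to 0.12, and without both libraries numbered 3 they were 0.008 and −0.0038. ADAM17 ranged from −0.0106 to 0.16. Over all genes, 1730 were higher and 1625 lower. Without 1 library these were 1017 to 1766 and 799 to 1547, both lowest without CD104high replicate 1. Without CD104high replicate 2 they were 1120 and 901, and without CD104low replicate 2 there were 1030 lower. The replicate block gave 2498 and 2208, the block with correction for length and GC 2750 and 2605, and a threshold of 0.01 gave 826 and 610. Without the trend 936 were lower. The cause of these shifts was not tested. Apart from the calls named here and in the report, the pairing by replicate block changed no other call among the 9 genes. Among genes named in the lists, SPRY4, SPRED2 and HGS lost their calls with total-read scaling (adjusted p = 0.0586, 0.0509 and 0.0742). Without the trend BTC, SOS2, NEDD4L, UBASH3B, HGS, ADAM19, FRMD8, SPRY1, SPRY4 and SPRED2 lost theirs (adjusted p = 0.0502 to 0.117). HGS also lost its call by edgeR (0.0524). Without both libraries numbered 3, BTC, HGS, ADAM19, SPRY4, SPRY1 and DUSP6 lost their calls (limma adjusted p = 0.0501 to 0.166). The scaling alternatives moved the median of all genes by at most 0.0193 on the log2 scale. With 3 libraries a group, 95% intervals of single genes were wide, from −0.44 to 0.39 for EGFR.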
